A study of Mus musculus with 8 samples.

Results

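The 8 genes described here are the centronuclear myopathy and myotubularin genes *Mtm1*, *Mtmr1*, *Mtmr2*, *Mtmr14*, *Bin1*, *Dnm2*, *Speg* and *Pik3c2b*. They were taken by symbol from a deposited table of 22206 probe sets, in which each of the 8 has 1 probe set. The table comes from mouse Clariom S arrays, on which the short probes for a gene are combined into a probe set. Male C57/Bl6j mice aged 10 weeks received, in the gastrocnemius (GAS) muscle, adeno-associated virus (AAV) expressing a short hairpin RNA (sh-RNA) from a U6 promoter. In the group AAV sh-RNA MYTHO (MYTHO-KD, 4 arrays) the hairpin targeted *Mytho*, and in the group AAV sh-RNA scrmb (scramble, 4 arrays) it was a scramble sequence put into the other leg. Muscles were collected 12 weeks later, at 22 weeks of age. Both groups therefore carried virus, no uninjected muscle is described here, and the U6 promoter is not restricted to muscle fibers. Because whole muscle RNA was measured, fewer cells of a type and less RNA per cell cannot be told apart.

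Centronuclear myopathies are inherited muscle disorders in which nuclei lie in the center of the fiber. Several of the proteins mutated in them act on the membranes of the triad, where the transverse tubule meets the sarcoplasmic reticulum. Myotubularins remove a phosphate from the lipid phosphatidylinositol 3-phosphate (PI3P), which marks endosomes and forming autophagosomes. BIN1 curves and dynamin 2 cuts membranes, and SPEG is a kinase of the triad that binds myotubularin. The question put to these arrays was what prolonged loss of MYTHO does to gene expression in a muscle that develops myopathic features.

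The deposited table gives the authors' average and standard deviation (SD) for each group on the log2 scale, after normalization, and no values of single arrays. Which arrays lay high or low, and whether the groups overlapped, can therefore not be given. Differences are MYTHO-KD minus scramble on the log2 scale, and they were tested over all probe sets with limma's moderated test from the averages and SDs. Adjusted p-values are those of Benjamini and Hochberg over the 22206 probe sets. The averages ran from 3.18 to 19.93 over the whole table, and the median difference over all probe sets was -0.01. The target *Mytho*, listed under its earlier symbol D230025D16Rik, averaged 7.71 in MYTHO-KD and 10.02 in scramble. It fell by 2.31 (95% interval -2.97 to -1.65, adjusted p = 0.0138, limma), which left 20.2% of the scramble signal. Its adjusted p was 0.173 without moderation of the variances and 0.363 with unequal variances. All 7 muscle fiber markers examined, *Acta1*, *Ckm*, *Mylpf*, *Tnnt3*, *Tnni2*, *Myh4* and *Myh1*, averaged 17.58 or more in both groups. *Acta1* and *Myh4* sat at 19.93 with an SD of 0.00 in both groups, where a change could not be measured. Of the 7, 2 had a higher average in MYTHO-KD, 3 a lower and 2 an equal one. The largest difference was 0.59 for *Myh1* (unadjusted p = 0.00873, adjusted p = 0.230, limma).

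None of the 8 genes passed an adjusted p under 0.05, a limit met by 0.275% of all probe sets. None passed the call rule of the study's methods either, at least 2-fold with an unadjusted p under 0.05, which 1.12% of all probe sets met. The p used for this rule is that of the limma test here and not the study's own, so the probe sets that pass can differ from the study's. Without adjustment, only *Mtmr1* of the 8 was higher at a p under 0.05, against 6.48% of all probe sets, and none was lower, against 5.52%. The differences of the 8 genes ran from -0.26 for *Bin1* to 0.38 for *Mtmr1*, with a median of 0.150. The average was higher in MYTHO-KD for 7 of the 8, against 46.9% of all probe sets, and lower for *Bin1*. The 95% interval lay within a 2-fold change in either direction for all 8 genes, as it did for 89.2% of all probe sets. The widest bounds were a 0.654-fold level for *Bin1* and a 1.83-fold level for *Speg*. At this precision, a 2-fold change lay outside the interval of each of the 8 genes, while smaller changes, up to the bounds of the intervals, lay inside.

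**Figure D1:**
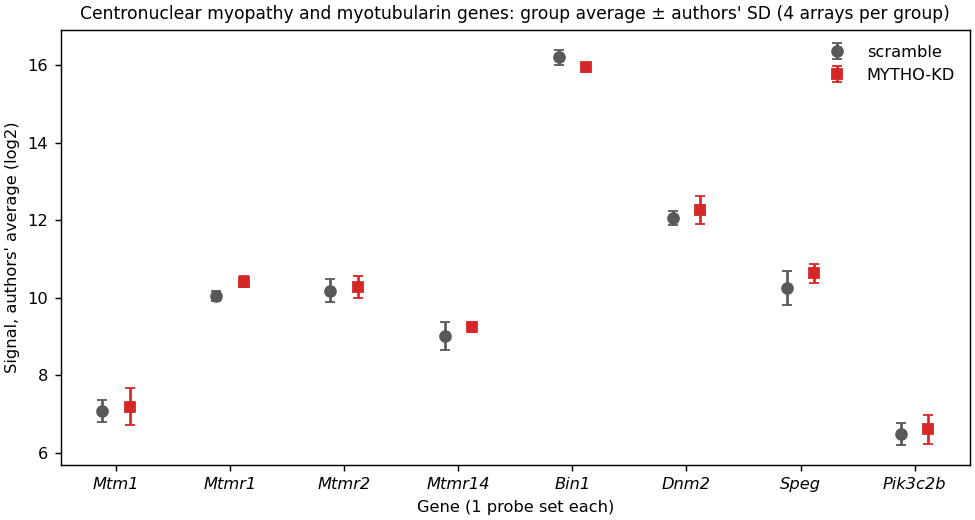
Signal of the 8 genes as the authors' group average on the log2 scale (vertical axis), with scramble as gray circles, MYTHO-KD as red squares and the authors' SD as bars. The bars of the 2 groups are apart for *Mtmr1*, with SDs of 0.15 and 0.13, and overlap for each of the other 7 genes; heights of different genes are not comparable, since each gene has its own probes.

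The myotubularin phosphatases come first. *Mtm1* encodes myotubularin, the enzyme lost in X-linked myotubular myopathy, and lies on chromosome X from 71210767 to 71315691 (mm10, as all coordinates of the table). Its average was 7.19 in MYTHO-KD against 7.08 in scramble (authors' SDs 0.47 and 0.28.) The difference of 0.11 (95% interval -0.41 to 0.63, adjusted p = 0.912, limma) was smaller than either SD. The SD of 0.47 was the largest of the 8 genes in either group.

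*Mtmr1*, its closest relative together with *Mtmr2*, is the next gene on the same strand of chromosome X, from 71364760 to 71419196. The 2 genes are separated by 49068 bases, with no other RefSeq gene between them. *Mtmr1* averaged 10.42 in MYTHO-KD and 10.04 in scramble. The authors' SDs of 0.15 and 0.13 were small, and the difference of 0.38 was more than either. It corresponds to a 1.30-fold level (95% interval 1.03 to 1.65, unadjusted p = 0.0332, adjusted p = 0.367, limma). Of all probe sets, 19.6% had a difference of at least this size in one or the other direction, and 9.05% had a p as low. Whether *Mtmr1* and *Mtm1* differ in their change was not tested, since averages and SDs do not show how the genes vary together across arrays.

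The promoters of these neighbors are shown because the genes lie side by side while each has its own start, so that the window upstream of *Mtmr1* can be compared with those of *Mtm1*. Each sequence runs 5′ to 3′ on the strand of the gene, from 250 bases before to 50 bases after a transcript start (RefSeq, GRCm38.p6, the assembly named mm10 in the table). Capitals mark the E-box core CACGTG, which reads the same on both strands, and lower case marks the rest.
*Mtm1*, first start, chrX:71210517-71210816: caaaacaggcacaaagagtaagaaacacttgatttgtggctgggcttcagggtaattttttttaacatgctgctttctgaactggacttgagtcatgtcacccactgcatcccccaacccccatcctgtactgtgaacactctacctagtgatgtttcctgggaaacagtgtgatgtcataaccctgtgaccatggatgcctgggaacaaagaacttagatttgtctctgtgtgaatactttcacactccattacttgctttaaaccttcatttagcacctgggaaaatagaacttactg
*Mtm1*, second start, chrX:71214756-71215055: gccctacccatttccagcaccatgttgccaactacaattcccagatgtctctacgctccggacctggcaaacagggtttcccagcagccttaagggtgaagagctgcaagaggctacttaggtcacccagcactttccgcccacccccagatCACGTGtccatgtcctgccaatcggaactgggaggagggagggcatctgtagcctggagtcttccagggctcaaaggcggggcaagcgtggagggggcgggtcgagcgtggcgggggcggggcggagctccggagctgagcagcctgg
*Mtmr1*, chrX:71364510-71364809: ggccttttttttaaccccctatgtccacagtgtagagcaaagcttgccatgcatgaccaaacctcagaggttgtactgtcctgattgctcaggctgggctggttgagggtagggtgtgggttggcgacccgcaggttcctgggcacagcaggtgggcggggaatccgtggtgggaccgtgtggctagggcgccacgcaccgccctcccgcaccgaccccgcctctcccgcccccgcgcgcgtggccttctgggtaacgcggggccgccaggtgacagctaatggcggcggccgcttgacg
The first *Mtm1* window had 0 CG dinucleotides and 43.0% G and C, the second had 14 and 62.7%, and that of *Mtmr1* had 23 and 65.7%. The second *Mtm1* window held a single CACGTG, with its first base at -98 where the start site is counted as 1. Another *Mtm1* window overlaps the second and holds the same match. Of 32817 promoter windows of the same length, 7.15% held CACGTG, the core of the sequence bound by the lysosomal regulator TFEB and by other E-box factors. The match is a description of the letters. The promoter search covered 14 windows of 7 of the 8 genes. No window of *Bin1* was searched, so whether its promoter holds any of these motifs was not tested.

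*Mtmr2*, whose loss causes a Charcot-Marie-Tooth neuropathy, lies on chromosome 9 from 13748410 to 13806481. It averaged 10.28 in MYTHO-KD against 10.18 in scramble (authors' SDs 0.29 and 0.30.) The difference of 0.10 (95% interval -0.35 to 0.55, adjusted p = 0.906, limma) was the smallest of the 8 in absolute size.

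*Mtmr14*, also known as Jumpy, encodes a PI3P phosphatase that restrains autophagy and in which variants have been found in centronuclear myopathy. It lies on chromosome 6 from 113237843 to 113281392. The average was 9.25 in MYTHO-KD against 9.02 in scramble (authors' SDs 0.12 and 0.36.) The spread among scramble muscles was thus larger than the difference of 0.23 (95% interval -0.20 to 0.66, adjusted p = 0.711, limma). All 4 myotubularin phosphatases among the 8 genes had a higher average in MYTHO-KD, against 46.9% of all probe sets, with a median difference of 0.170.

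The *Mtmr14* promoter is shown with the forkhead motif GTAAACA in capitals, because FoxO factors, which bind such letters, are known regulators of autophagy genes in muscle.
*Mtmr14*, chr6:113237593-113237892: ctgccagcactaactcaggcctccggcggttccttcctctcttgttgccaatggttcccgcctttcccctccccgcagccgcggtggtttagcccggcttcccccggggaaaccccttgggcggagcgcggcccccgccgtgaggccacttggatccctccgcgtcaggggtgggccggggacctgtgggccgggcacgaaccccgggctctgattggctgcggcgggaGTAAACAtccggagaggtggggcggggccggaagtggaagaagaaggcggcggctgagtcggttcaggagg
It had 27 CG dinucleotides, and the motif begins at -21. Searched on both strands, GTAAACA was present in 1 of the 14 windows, none of them of *Bin1*, and in 3.65% of all windows.

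The membrane-shaping proteins differed in direction without passing the test. *Bin1* encodes amphiphysin 2, which builds transverse tubules and is mutated in recessive centronuclear myopathy. It lies on chromosome 18 from 32377217 to 32435740. *Bin1* averaged 15.95 in MYTHO-KD against 16.21 in scramble (authors' SDs 0.11 and 0.19.) Its difference of -0.26 (95% interval -0.61 to 0.09, unadjusted p = 0.133, adjusted p = 0.573, limma) left 83.5% of the scramble signal. It was the single gene of the 8 with a lower average, and its difference was larger than both SDs. RefSeq lists 3 curated transcripts of *Bin1*. The array gives 1 value for the gene, so changes in splicing, such as the skipping of the muscle exon known from myotonic dystrophy, were not measured.

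*Dnm2* encodes dynamin 2, a GTPase that cuts membrane necks and whose overactive mutants cause the dominant form of the disease. It lies on chromosome 9 from 21424908 to 21507759. The average was 12.26 in MYTHO-KD against 12.07 in scramble (authors' SDs 0.36 and 0.18.) The difference of 0.19 (95% interval -0.25 to 0.63, adjusted p = 0.780, limma) lay between the SDs. The change of *Dnm2* relative to that of *Bin1* or *Mtm1* was not tested.

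*Speg*, on chromosome 1 from 75375297 to 75432320, encodes a kinase that binds myotubularin at the triad. It averaged 10.63 in MYTHO-KD against 10.26 in scramble (authors' SDs 0.25 and 0.44.) The difference of 0.37 (95% interval -0.13 to 0.87, unadjusted p = 0.132, adjusted p = 0.571, limma) was close to that of *Mtmr1* in size, but the spread among scramble muscles was wider. The first promoter window of *Speg* is shown with its match to the MEF2 consensus, a sequence found in many muscle genes, in capitals.
*Speg*, first start, chr1:75375047-75375346: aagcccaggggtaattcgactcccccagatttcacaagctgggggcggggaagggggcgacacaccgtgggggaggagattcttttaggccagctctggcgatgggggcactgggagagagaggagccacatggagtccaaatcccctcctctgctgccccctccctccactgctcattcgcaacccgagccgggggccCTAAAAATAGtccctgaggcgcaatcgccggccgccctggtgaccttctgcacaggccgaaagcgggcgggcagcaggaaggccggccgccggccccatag
The match begins at -51. It was the only one among the 14 windows, and 3.19% of all windows held one.

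*Pik3c2b* encodes a class II phosphoinositide 3-kinase, which makes the lipid that myotubularin removes, and its loss is known to relieve the disease of *Mtm1*-deficient mice. It lies on chromosome 1 from 133045667 to 133108688. Its average was 6.60 in MYTHO-KD against 6.49 in scramble (authors' SDs 0.37 and 0.29.) The difference was 0.11 (95% interval -0.37 to 0.59, adjusted p = 0.901, limma), below either SD. The software marked *Pik3c2b* and the other genes described so far as expressed in both groups.

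**Figure D2:**
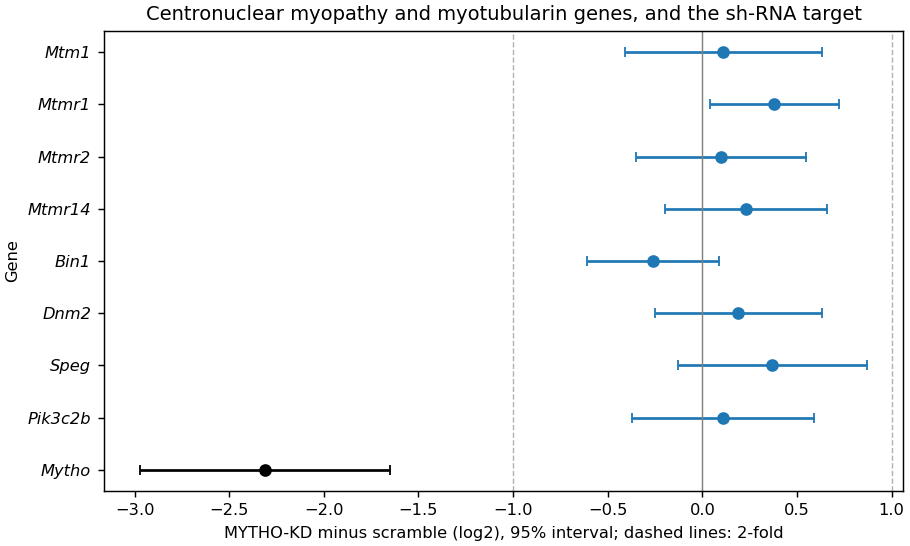
Difference MYTHO-KD minus scramble (horizontal axis, log2) of the 8 genes in blue and of the target *Mytho* in black, with 95% intervals from limma's moderated test; dashed lines mark 2-fold. The intervals of the 8 genes stay between -0.61 and 0.87, and only that of *Mtmr1* leaves out 0, while *Mytho* lies at -2.31.

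The spread among muscles did not lean to one group over these genes. The authors' SD was larger in MYTHO-KD for 4 of the 8 and larger in scramble for the other 4. It ran from 0.11 to 0.47 in MYTHO-KD and from 0.13 to 0.44 in scramble, against a median of 0.270 in each group over all probe sets. The 8 differences lay in the body of the distribution over all probe sets.

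**Figure D3:**
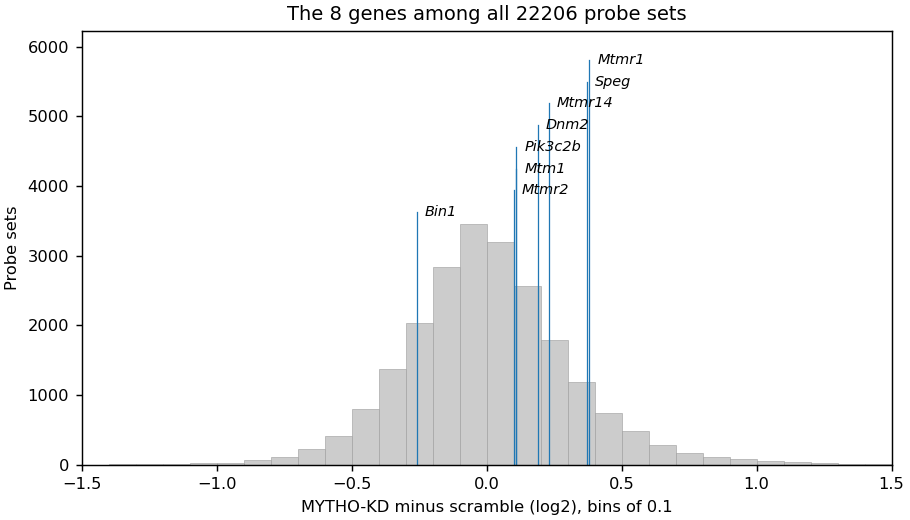
Number of probe sets (vertical axis) by difference MYTHO-KD minus scramble in bins of 0.1 (horizontal axis, log2) for the whole table, with a blue line at each of the 8 genes; the 68 probe sets beyond 1.5 in either direction are not drawn. All 8 lines stand between -0.26 and 0.38.

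Proteins that work with these 8 were examined in 8 lists by role, with 55 genes in all, of which 48 are not among the 8. Of the 48, 1 passed an adjusted p under 0.05 with a higher level in MYTHO-KD, as did 0.180% of all probe sets. None of the 48 passed it with a lower level, as did 0.0946% of all probe sets. Without adjustment, 4 of the 48 were higher at a p under 0.05 and 2 were lower, to be read against the same 6.48% and 5.52% of all probe sets. The median difference of the 48 was 0.060.

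The gene that passed was *Sbf1*, a myotubularin-related protein also called MTMR5. It belongs to the family members that have lost phosphatase activity and bind active ones, in this case MTMR2. *Sbf1* lies on chromosome 15 from 89288236 to 89315311. It averaged 10.20 in MYTHO-KD against 9.20 in scramble (authors' SDs 0.07 and 0.23.) It rose by 1.00, a 2.00-fold level (95% interval 1.56 to 2.57, adjusted p = 0.0359, limma). This is exactly at the 2-fold limit of the call rule, with averages rounded to 2 decimals. The call depended on the variance model: the adjusted p was 0.107 without moderation and 0.344 with unequal variances. The promoter of *Sbf1* is shown because it is the gene that passed the test. None of the 3 motifs searched was found in it, so no letters are in capitals.
*Sbf1*, chr15:89315262-89315561, minus strand: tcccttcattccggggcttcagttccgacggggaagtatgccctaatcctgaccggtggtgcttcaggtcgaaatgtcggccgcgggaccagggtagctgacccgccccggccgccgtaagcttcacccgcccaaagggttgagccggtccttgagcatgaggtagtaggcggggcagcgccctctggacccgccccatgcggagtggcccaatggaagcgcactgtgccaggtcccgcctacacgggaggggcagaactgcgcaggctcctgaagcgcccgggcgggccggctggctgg
It had 26 CG dinucleotides and 68.0% G and C.

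Of the 6 inactive relatives, 4 had a higher average, against 46.9% of all probe sets, with a median difference of 0.270. *Mtmr9*, which binds MTMR6 and its relatives, averaged 8.37 in MYTHO-KD and 7.84 in scramble (difference 0.53, unadjusted p = 0.0366, adjusted p = 0.379, limma). *Sbf2*, also called MTMR13 and a second partner of MTMR2, averaged 10.13 and 9.64 (difference 0.49, unadjusted p = 0.0498, adjusted p = 0.416, limma). Mutations of *Sbf1*, *Sbf2* or *Mtmr2* are known causes of Charcot-Marie-Tooth neuropathy. *Mtmr12*, the partner that stabilizes MTM1 in muscle, averaged 5.91 and 6.05 (difference -0.14, adjusted p = 0.890, limma), and it was named for this role after its values were seen. Among the 8 active phosphatases, with a median difference of 0.105, 6 had a higher average, against the same 46.9%, and none passed the adjustment. The other 4 of them, *Mtmr3*, *Mtmr4*, *Mtmr6* and *Mtmr7*, ranged from -0.21 to 0.11. Whether inactive and active relatives differ in their change was not tested.

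The kinases that make PI3P and the proteins that use it gave no call after adjustment. Among 9 genes of the class II and III kinases and their complexes, differences ran from -0.25 for *Becn1*, a subunit of the autophagy kinase complex (adjusted p = 0.661, limma), to 0.22 for *Nrbf2*, another subunit (adjusted p = 0.735). None of the 9 had an unadjusted p under 0.05. The 3 genes of the complex that turns PI3P into PI(3,5)P2 had differences of -0.22 for the kinase *Pikfyve*, 0.23 for the scaffold *Vac14* and 0.22 for the phosphatase *Fig4*, with adjusted p-values of 0.716, 0.666 and 0.660 (limma). Of 10 proteins that bind PI3P, 7 had a higher average, against 46.9% of all probe sets, with a median difference of 0.145. *Wipi1*, which binds PI3P on forming autophagosomes, averaged 9.59 in MYTHO-KD and 9.09 in scramble (difference 0.50, unadjusted p = 0.0246, adjusted p = 0.330, limma). *Zfyve16*, an endosomal protein, differed by 0.38 (adjusted p = 0.567).

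Among 7 dynamins and BAR proteins, the largest absolute difference was that of *Dnm3*, which encodes dynamin 3. It averaged 9.80 in MYTHO-KD against 10.45 in scramble (authors' SDs 0.28 and 0.13.) The difference of -0.65 (95% interval -1.04 to -0.26, unadjusted p = 0.00349, adjusted p = 0.164, limma) left 63.7% of the scramble signal and did not pass the adjustment. *Amph*, which encodes amphiphysin, the neuronal relative of BIN1, averaged 6.56 and 6.17 (difference 0.39, unadjusted p = 0.0700, adjusted p = 0.459, limma). The other 3 genes of this list outside the 8, *Dnm1*, *Bin2* and *Bin3*, differed by -0.18, 0.11 and -0.01.

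Other genes in which mutations give congenital myopathy with central nuclei had a lower average in MYTHO-KD for 4 of 5, against 51.4% of all probe sets, with a median difference of -0.260 and none past the adjustment. *Ryr1*, the calcium release channel of the sarcoplasmic reticulum, averaged 16.34 in MYTHO-KD against 16.73 in scramble (authors' SDs 0.25 and 0.15) (difference -0.39, unadjusted p = 0.0461, adjusted p = 0.408, limma). *Ttn*, which encodes titin, and *Ccdc78* both differed by -0.26 (adjusted p = 0.550 and 0.615, limma). *Cacna1s*, the voltage sensor of the transverse tubule, differed by 0.11, and *Map3k20*, listed as Zak, by -0.06.

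The triad and filament partners of MTM1, BIN1 and SPEG gave no call among 7 genes. *Des*, which encodes the filament protein desmin that binds myotubularin, differed by 0.14 (adjusted p = 0.787, limma), and the junctophilin gene *Jph2* by -0.16 (adjusted p = 0.788). Both were named for their role after their values were seen. *Cav3*, which encodes the muscle caveolin, differed by 0.24 (adjusted p = 0.629, limma). For *Atp2a2*, the slow fiber calcium pump, the authors' SD was 2.14 in MYTHO-KD and 0.89 in scramble, and the difference of 0.48 had a 95% interval from -1.35 to 2.31. The fast fiber pump *Atp2a1* sat at 19.93 with an SD of 0.00 in both groups, the highest value of the table, so a change could not be measured there.

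**Figure D4:**
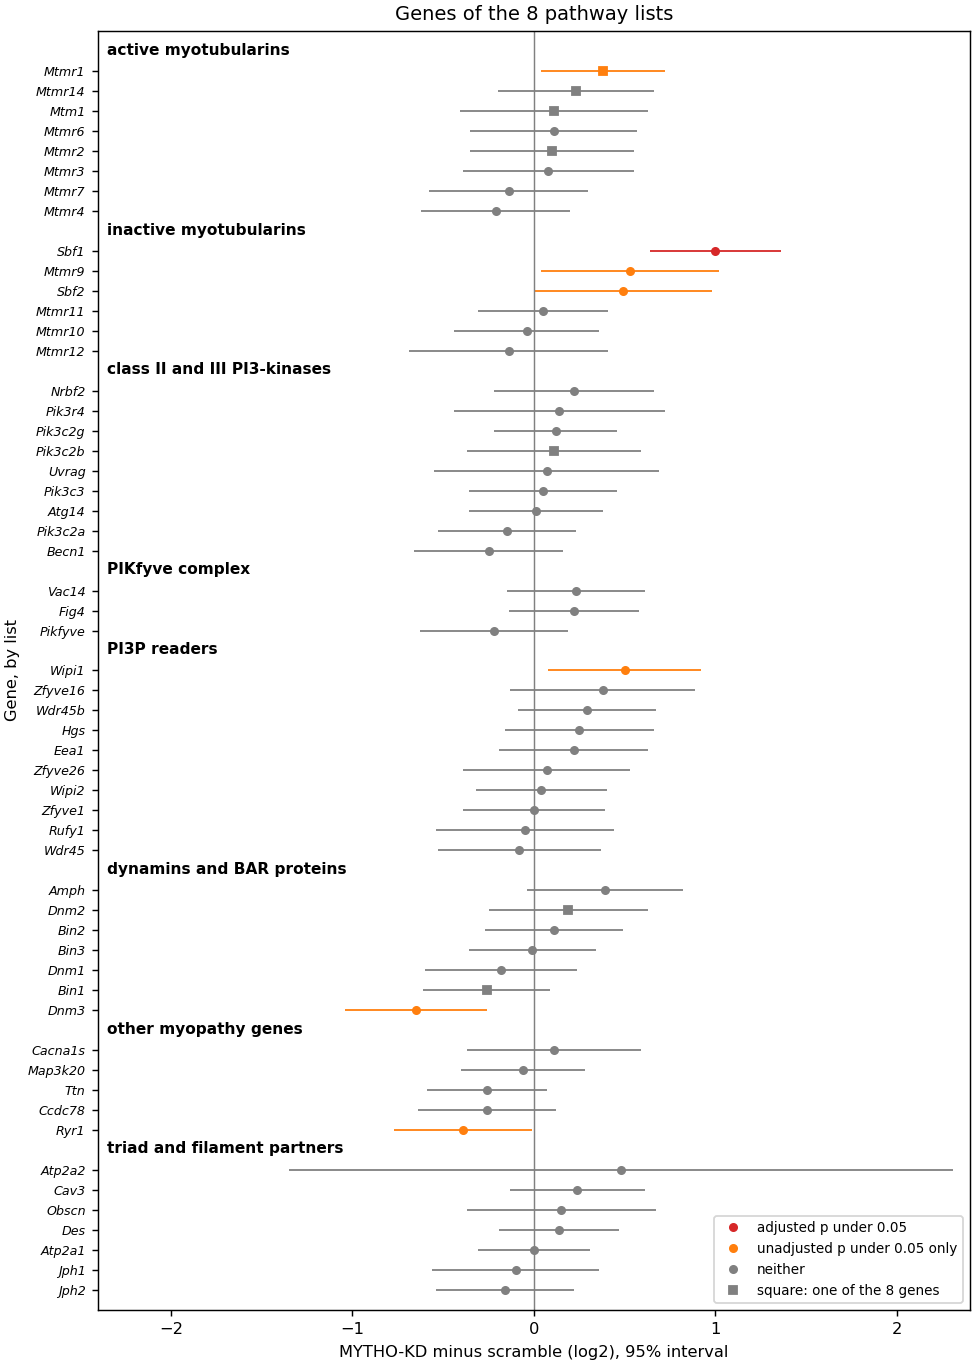
Difference MYTHO-KD minus scramble (horizontal axis, log2) with 95% intervals for the 55 genes of the 8 lists, sorted within each list; squares are genes of the 8, red marks an adjusted p under 0.05 and orange an unadjusted p under 0.05 only. *Sbf1* at 1.00 is the one red point, *Dnm3* at -0.65 has the lowest difference, and the interval of *Atp2a1* has no meaning because its signal is at the top of the scale.

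Most genes of the myotubularin family are also active outside muscle fibers, so markers of other cells were examined. All 8 macrophage markers had a higher average in MYTHO-KD, against 46.9% of all probe sets, and their differences ran from 0.37 for *Mrc1* to 2.53 for *Cd68* with a median of 0.860. Of these, *Cd68* and *Lyz2* rose at an adjusted p under 0.05 (limma), a limit met in that direction by 0.180% of all probe sets. All 7 fibroblast markers also had a higher average, from 0.18 for *Pdgfra* to 1.94 for *Bgn* with a median of 0.820, and *Bgn* and *Lum* rose at that limit. The 5 endothelial markers had differences from 0.22 to 0.75 with a median of 0.530, and none passed. Without moderation or with unequal variances, where 2 probe sets of the whole table passed, none of these markers did. Among 4 Schwann cell markers, 2 were higher and 2 lower in average, and the satellite cell markers *Pax7* and *Myf5* differed by 0.18 and -0.04. Of 5 regenerating fiber markers, *Myh3* and *Mymk* (listed as Tmem8c) were at least 2-fold higher with an unadjusted p under 0.05, as were 0.860% of all probe sets, and neither passed the adjustment, which *Mymk* did with a trend and robust moderation. *Myog* and *Mymx* differed by 0.21 and -0.01, and *Myh8* sat at 19.93 with an SD of 0.00 in both groups, where a change could not be measured. No marker was listed at 0, and all were marked as expressed in both groups. The part of these cells in the differences of *Sbf1*, *Mtmr1* or any other gene named here was not tested.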

How the data were processed

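Expression was measured with Clariom S Mouse arrays in 4 MYTHO-KD and 4 scramble GAS muscles. Normalization by the authors was SST-RMA, run at default settings of their Transcriptome Analysis Console. The deposited table holds 28 columns on mm10 coordinates, with decimal commas. It gives the authors' average and SD of the log2 signal per group, an expression flag, and the fold changes and p-values of their own comparison, which were not used. Columns of single arrays numbered 0, and the kind of average is not stated. Samples were grouped by their labels, whose titles carry replicate numbers.

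The planned model on single arrays was replaced by the same moderated test from the averages and SDs (limma 3.58.1, R 4.3.3). The mean of both group variances (6 residual degrees of freedom) was shrunk by squeezeVar towards a prior SD of 0.284 with 5.85 prior degrees of freedom. P-values are two-sided and adjusted by Benjamini-Hochberg over 22206 probe sets. If the averages are robust averages rather than plain means, its p-values are approximate. Legs of one mouse could not be matched, and 4 arrays per group limit the precision. The p-values set each difference against the spread between these muscles, after its shrinkage towards the prior SD taken from all probe sets. The muscles were treated as independent, although the scramble virus went into the other leg.

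A gene with several probe sets is given by the one with the highest mean. Named were the 8 genes, the target, and from each list the genes with an unadjusted p under 0.05 and the 2 with the largest absolute difference. Genes outside this rule are marked in the text, given within a range or used as markers. Genes and lists were chosen with earlier results of these data known, and the promoter motifs after the sequences were seen. Promoters were searched in Python 3.11.15. Alternatives tried were no moderation, a trend with robust moderation, unequal variances, leaving out dim probe sets (those whose mean fell below 5.72, the 30th percentile), only probe sets expressed in both groups, centring on the median difference, and other thresholds.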

Additional observations from a re-analysis of the deposited data

How the results depend on the processing

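No paired analysis was possible because the table gives group averages and SDs and no values of single arrays, and for the same reason leaving out single arrays was not possible. No gene of the 8 has a second probe set, so that alternative was not run. The 6 other settings of the fit change the variances or the probe sets tested, or shift every difference by one small constant, so the directions of the 8 genes could not turn. None of the 8 passed an adjusted p under 0.05 in any of them. The lowest adjusted p was 0.292, for *Mtmr1* without dim probe sets, and the unadjusted p of *Mtmr1* stayed between 0.00867 and 0.0402. At an unadjusted p under 0.05, 1 of the 8 was higher. In the 48 other genes, the 1 higher call, *Sbf1*, became 0 without moderation and 0 with unequal variances. There the counts over all probe sets fell from 61 to 2 each, against 189 with a trend and robust moderation, where the adjusted p of *Sbf1* was 0.0177. At an unadjusted p under 0.05 the 48 gave 4 higher and 2 lower. At 1.5-fold with that p they gave 1 higher (*Sbf1*) and 1 lower (*Dnm3*). The share of all probe sets at this 1.5-fold limit was not counted. *Mytho* also missed the adjusted threshold without moderation (adjusted p = 0.173) and with unequal variances (0.363). Signals near the top of the scale, as for *Atp2a1*, limit what can be seen.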
